A study of Mus musculus with 12 samples.

Results

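The DNA methylation machinery of the mouse was examined as open chromatin at the genes of its writers and erasers: the methyltransferase genes Dnmt1, Dnmt3a and Dnmt3b, their cofactor genes Dnmt3l and Uhrf1, and the dioxygenase genes Tet1, Tet2 and Tet3. Omni-ATAC-seq served as the measure of accessibility; in this assay the Tn5 transposase cuts open DNA and ligates sequencing adapters to it in 1 step. A peak was assigned to a gene when it overlapped the gene body in GENCODE M21 (GRCm38), extended by 10 kb on both sides. This gave 95 of the 91354 peaks counted on the BGI platform and 93 of the 87027 peaks counted on the Illumina platform, all 502 bp wide. The cells were mouse embryonic fibroblasts (MEFs) sorted as Thy1+ and embryonic stem cells of the mouse (mESCs) gated as Thy1-/Ssea1+/Epcam+, all of C57/Bl6 background, and the labels give no treatment or allele that sets samples apart. The 3 MEF libraries carry the numbers 1, 2 and 4 and the 3 mESC libraries the numbers 1, 3 and 5, and all 6 were read both on the DNBSEQ-G400 of BGI and on the HiSeqX10 of Illumina. The resulting 12 samples fall into 4 groups of 3, and the BGI and Illumina samples of a library are readings of the same DNA.

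Methylation of cytosine in CpG dinucleotides is laid down and kept by different enzymes. Dnmt3a and Dnmt3b methylate DNA that carries no mark, and Dnmt3l, which has no catalytic activity of its own, binds and stimulates them. Dnmt1 copies the mark onto the new strand after replication, guided by Uhrf1, which binds hemimethylated CpG. Tet1, Tet2 and Tet3 oxidise 5-methylcytosine to 5-hydroxymethylcytosine and further, which opens a route back to unmodified cytosine. Mouse embryonic stem cells are known for high Tet1, Tet2 and Dnmt3l expression, and CpG islands at gene starts are generally open and free of methylation in most cell types.

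Reads counted in peaks ranged from 20.1 to 21.7 M per MEF sample and from 15.9 to 16.96 M per mESC sample, and accessibility is given as counts per M of these reads (CPM). The promoter peaks of 7 of 8 mESC markers were higher in mESCs and those of 7 of 8 MEF markers were lower on both platforms; the exceptions were Fut4, which was lower in mESCs, and Pdgfra, which was not called. The summed promoter signal of the 8 mESC markers was 37.4 to 38.7 CPM in MEFs and 217 to 259 CPM in mESCs on BGI, and that of the 8 MEF markers was 241 to 277 CPM in MEFs and 74.2 to 82.3 CPM in mESCs. Of 4 endoderm markers, Sox17, Foxa2 and Gata4 were higher in mESCs and Gata6 was lower, with sums of 48.0 to 56.2 CPM in MEFs and 66.8 to 75.2 CPM in mESCs, and their part in the results below was not tested. None of the 3 endothelial markers with a peak was called, with Cdh5 lacking one, and none of the 4 blood markers had a promoter peak. These are bulk samples, so fewer cells with an open site and a less open site in every cell cannot be told apart. The study describes the libraries of a cell type as biological replicates, but the labels do not name their cultures, so the p-values measure the spread between these samples. A peak entered a table when it was reproducible in at least 1 cell type. A peak that entered through 1 cell type only was chosen for being open there, so its direction was largely fixed by that choice.

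The starts of these genes differ in their CpG content, and the following 300-base windows, from 250 bases before to 50 bases after a start in GRCm38, are shown for a spread of CpG contents among starts whose accessibility is given further on. Capitals mark CpG dinucleotides, the letters run 5′ to 3′ on the strand of the gene, and all windows are RefSeq promoter sequences except that of the upstream Tet1 start, which was read from the genome at the start of the GENCODE transcript Tet1-206. Over all 32851 RefSeq promoter windows of this length the median was 7 CpG, 38.0% held fewer than 5 and 11.7% held 30 or more.
Tet2 (chr3:133544341-133544640, minus strand, 57 CpG): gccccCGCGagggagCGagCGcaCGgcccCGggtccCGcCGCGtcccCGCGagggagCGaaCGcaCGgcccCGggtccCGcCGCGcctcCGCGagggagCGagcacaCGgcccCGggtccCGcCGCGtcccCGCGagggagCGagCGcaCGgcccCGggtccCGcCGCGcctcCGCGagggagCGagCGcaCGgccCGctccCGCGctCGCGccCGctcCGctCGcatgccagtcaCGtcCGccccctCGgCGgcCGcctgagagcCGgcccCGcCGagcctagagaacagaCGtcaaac
Dnmt1 (chr9:20952574-20952873, minus strand, 33 CpG): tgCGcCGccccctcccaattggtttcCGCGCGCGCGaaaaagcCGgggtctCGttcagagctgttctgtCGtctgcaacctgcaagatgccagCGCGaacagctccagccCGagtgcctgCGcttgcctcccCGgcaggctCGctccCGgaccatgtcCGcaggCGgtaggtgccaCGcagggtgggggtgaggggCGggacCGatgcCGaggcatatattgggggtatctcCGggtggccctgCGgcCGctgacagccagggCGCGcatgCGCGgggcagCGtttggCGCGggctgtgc
Dnmt3b (chr2:153649199-153649498, plus strand, 30 CpG): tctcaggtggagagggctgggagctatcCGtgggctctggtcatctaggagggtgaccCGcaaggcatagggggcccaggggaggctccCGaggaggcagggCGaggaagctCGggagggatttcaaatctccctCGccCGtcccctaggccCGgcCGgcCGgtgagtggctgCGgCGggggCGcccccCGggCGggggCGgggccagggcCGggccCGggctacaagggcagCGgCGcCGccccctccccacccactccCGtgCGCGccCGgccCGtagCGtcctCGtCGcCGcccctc
Tet1, downstream start (chr10:62887275-62887574, minus strand, 17 CpG): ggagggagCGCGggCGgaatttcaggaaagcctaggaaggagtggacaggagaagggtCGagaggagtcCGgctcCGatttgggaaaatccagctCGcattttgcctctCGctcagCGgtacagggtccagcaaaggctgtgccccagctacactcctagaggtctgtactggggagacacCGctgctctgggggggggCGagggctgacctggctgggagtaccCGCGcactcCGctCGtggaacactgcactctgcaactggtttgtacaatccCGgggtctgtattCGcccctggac
Tet1, upstream start (chr10:62899069-62899368, minus strand, 5 CpG): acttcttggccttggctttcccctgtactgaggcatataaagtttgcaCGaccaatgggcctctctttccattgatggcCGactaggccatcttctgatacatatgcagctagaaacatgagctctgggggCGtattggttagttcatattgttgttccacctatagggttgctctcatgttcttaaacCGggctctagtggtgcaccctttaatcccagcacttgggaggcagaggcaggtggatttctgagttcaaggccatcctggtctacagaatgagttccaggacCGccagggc
Dnmt3l (chr10:78049592-78049891, plus strand, 4 CpG): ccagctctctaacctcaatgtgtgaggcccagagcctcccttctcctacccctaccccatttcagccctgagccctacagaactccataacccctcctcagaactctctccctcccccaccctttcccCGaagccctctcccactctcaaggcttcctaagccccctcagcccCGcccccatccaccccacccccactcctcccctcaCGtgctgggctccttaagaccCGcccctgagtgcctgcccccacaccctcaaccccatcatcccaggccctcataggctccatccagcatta
The printed windows of Tet2, Dnmt1 and Dnmt3b held 57, 33 and 30 CpG, whereas those of Dnmt3l and of the upstream Tet1 start held 4 and 5, and the downstream Tet1 start lay in between with 17. The RefSeq windows not printed held 46 and 47 CpG at the long-form starts of Dnmt3a and 18 at its short-form start, 22 at Tet3, 12 and 33 at Uhrf1, 2 and 12 at the other Dnmt1 starts, and 6 and 3 at the other Dnmt3l starts.

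More of the member peaks were higher in mESCs than in MEFs. A peak entered the tables through the reproducible peak list of either cell type, and 54 of the 95 BGI peaks were in the mESC list only and 18 in the MEF list only. The counts below therefore describe peaks partly chosen for their direction, and named peaks in a single list are given with their SE and no p, except where the loss of a call is described. On BGI, edgeR called 60 of the 95 peaks higher (63.2%) against a background of 40.9% of all peaks, and 24 lower (25.3%) against 43.2%. With a fold of at least 2 required, 49 were higher (51.6%, background 33.0%) and 15 lower (15.8%, background 30.1%). The median log2 fold change was 1.32 over the member peaks and -0.08 over all peaks. The MEF and mESC samples did not overlap at 83 of the 95 peaks (87.4%), which was close to the 85.1% of all peaks. On Illumina, 55 of 93 were higher (background 42.1%) and 27 lower (background 42.4%), 48 and 15 of them at least 2-fold (backgrounds 33.6% and 28.2%), and 83 did not overlap (background 85.6%). An Illumina peak covered at least 50% of a BGI peak for 84 of the 95. Of these pairs, 72 were called on both platforms and 0 of them in opposite directions, 2 were called on BGI only, 2 on Illumina only and 8 on neither.

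Away from the starts most member peaks were higher in mESCs, and at the starts both directions occurred. The 58 BGI peaks away from any start had 42 higher (72.4%), 11 lower (19%) and 5 not called, with a median log2 fold change of 2.12, against 45.5% higher and 44.3% lower of all peaks away from starts. Illumina gave 42 higher and 10 lower of 57, with a median of 2.24, against 47.6% and 42.4%. Peaks within 1 kb of a member's own start numbered 30 on BGI, of which 14 were higher (46.7%), 10 lower (33.3%) and 6 not called, with a median of 0.03, against 31.3% and 41% of all peaks at a start. On Illumina 9 of 29 own-start peaks were higher and 14 lower, with a median of -0.17, against 31.6% and 42.4%. The remaining 7 peaks of each platform lay at the start of a neighbouring gene. By gene, Dnmt3l had 9 of 9 BGI peaks higher, Tet2 13 of 14, Tet1 18 of 22, Dnmt3b 4 of 6, Dnmt3a 11 of 21, Dnmt1 3 of 8, Tet3 2 of 10 and Uhrf1 0 of 5, and Tet3 had 8 of 10 lower. Scaling to the down-sampled read depths instead of by TMM moved the median of all peaks by 0.14 on BGI and 0.13 on Illumina and gave 62 higher and 22 lower member peaks on BGI (backgrounds 43.5% and 38.8%), and 58 and 22 on Illumina (backgrounds 44.5% and 38.3%).

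**Figure D1:**
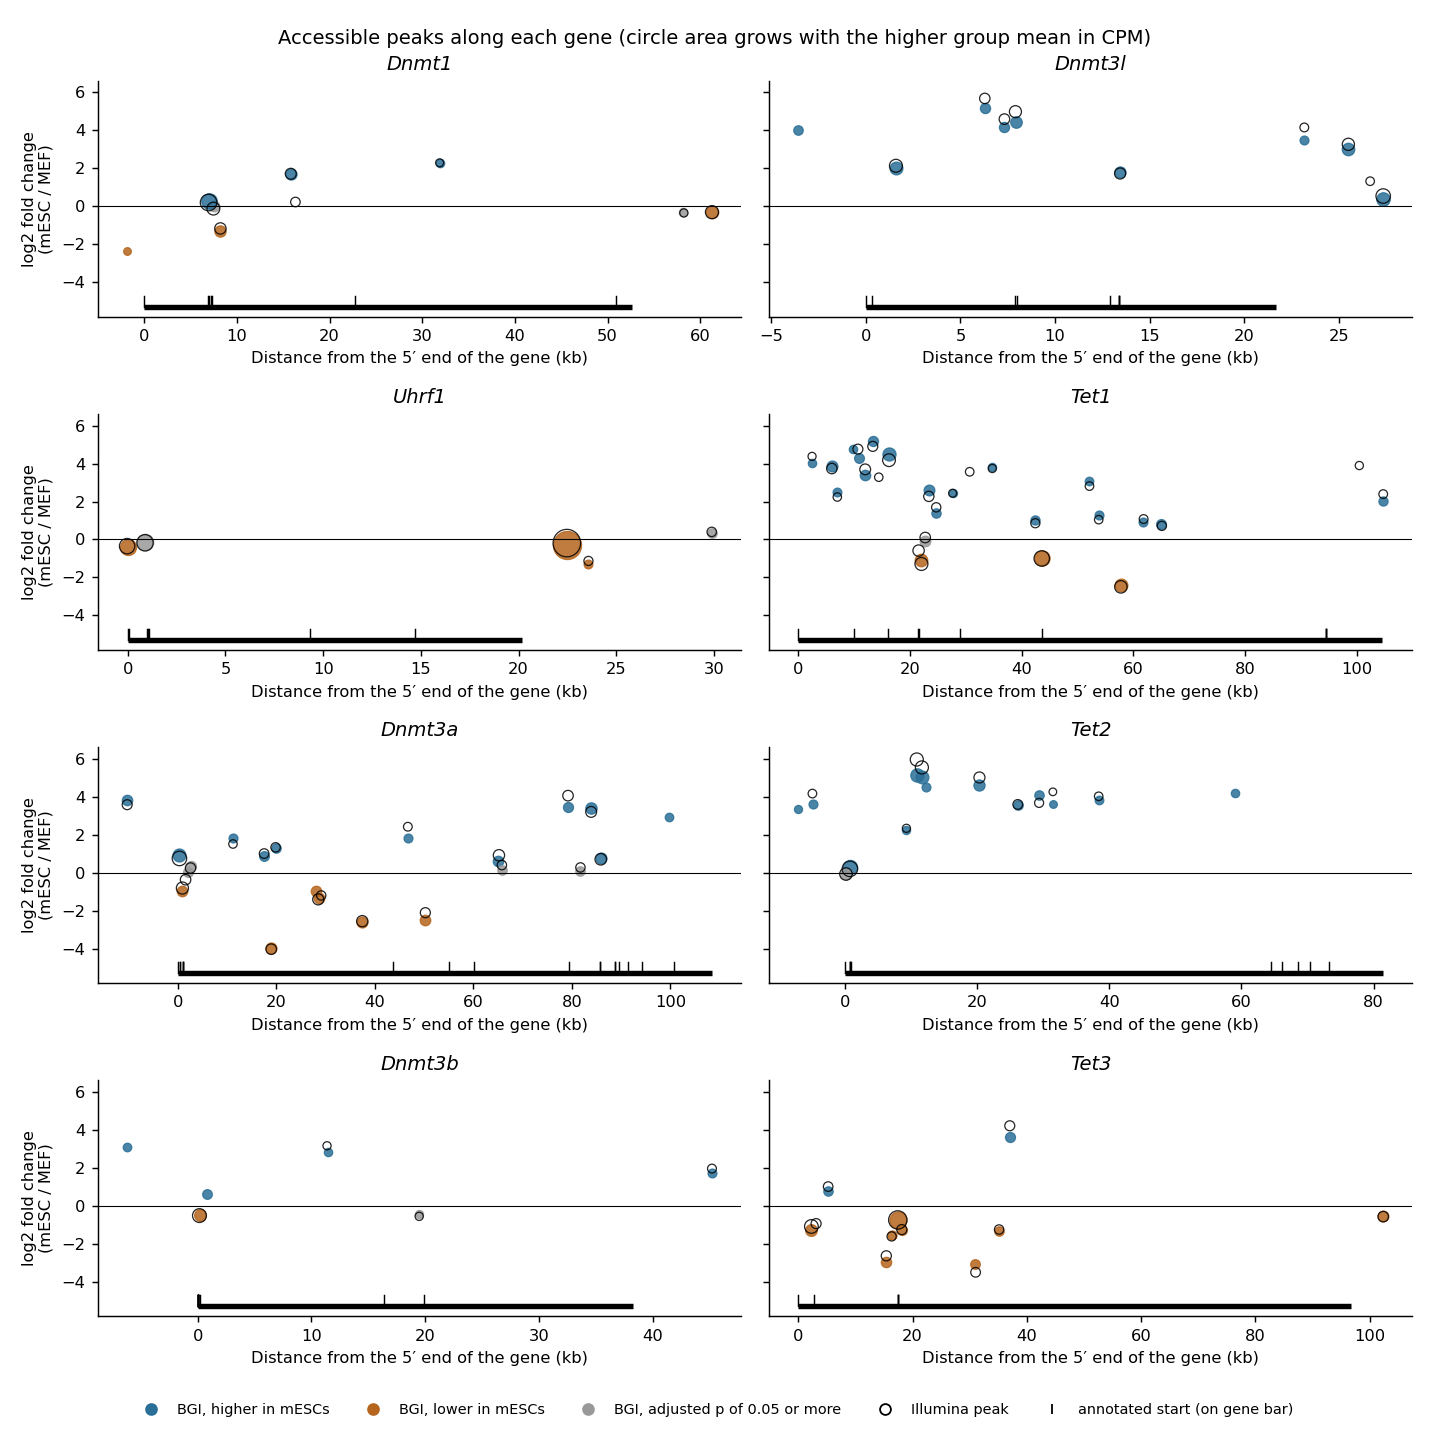
Log2 fold change (mESC over MEF) of each peak against its distance in kb from the 5′ end of the gene, 1 panel per gene. BGI peaks are filled and coloured by call, Illumina peaks are open, the area grows with the higher group mean, and the bar marks the gene with ticks at annotated starts; the peaks of Tet2 away from its start lie above 2 on the BGI scale while its 2 start peaks lie near 0.

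Summed over a locus, the genes fell into a range from clear mESC excess to clear MEF excess. Peaks of a single list make up most of several sums. In the mESC list only were 8 of 9 at Dnmt3l, 12 of 14 at Tet2 and 17 of 22 at Tet1. At Tet3, 6 of 10 were in the MEF list only. The values of these 4 loci are therefore given as a description with no p. The Dnmt3a sum, given further on, also holds mostly such peaks (6 of 21 in the MEF list only and 8 in the mESC list only) and is given the same way. On BGI the sums of Dnmt1, Dnmt3l, Uhrf1 and Tet3 include peaks that lie at the start of a neighbouring gene and not at their own, and start peaks of Dnmt3b, Tet1, Tet2 and Tet3 also lie within 1 kb of a start of Dnmt3bos, Gm26479, Gm42567 and B230319C09Rik. Dnmt3l, the cofactor of de novo methylation, had the largest log2 fold change, with 30.9, 37.1 and 38.1 CPM in MEFs 1, 2 and 4 and 155, 150 and 145 CPM in mESCs 1, 3 and 5. The Tet2 locus had 44.9, 44.2 and 51.8 CPM in MEFs 1, 2 and 4 and 179, 183 and 165 CPM in mESCs 1, 3 and 5. The Tet1 locus had 122, 131 and 140 CPM in MEFs 1, 2 and 4 and 234, 232 and 231 CPM in mESCs 1, 3 and 5. In all 3 loci the lowest mESC sample was above the highest MEF sample. Their log2 fold changes were 2.04 ± 0.07, 1.86 ± 0.07 and 0.78 ± 0.05 (SE). The Tet3 locus went the other way, with 135, 136 and 155 CPM in MEFs 1, 2 and 4 and 86.6, 83.9 and 84.5 CPM in mESCs 1, 3 and 5, a log2 fold change of -0.79 ± 0.06. On Illumina these 4 loci gave 2.001 ± 0.071, 1.47 ± 0.06, 0.69 ± 0.06 and -0.76 ± 0.05.

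The loci of the other 4 genes differed by less. Dnmt3a had 159, 161 and 192 CPM in MEFs 1, 2 and 4 and 205, 207 and 211 CPM in mESCs 1, 3 and 5. Of its 21 BGI peaks, 6 were in the MEF list only and 8 in the mESC list only, so its value is given with no p. Its log2 fold change was 0.24 ± 0.06 here and 0.22 ± 0.06 on Illumina. Uhrf1 had 245, 253 and 237 CPM in MEFs 1, 2 and 4 and 205, 227 and 209 CPM in mESCs 1, 3 and 5, with -0.25 ± 0.05 (edgeR adjusted p = 3.4e-04) here and -0.19 ± 0.05 on Illumina, and this call was lost when the samples were scaled to the down-sampled depths (-0.12 and -0.09). Dnmt1, the maintenance enzyme, had 99.8, 93.8 and 103 CPM in MEFs 1, 2 and 4 and 105, 110 and 107 CPM in mESCs 1, 3 and 5 and was not called on either platform (0.07 ± 0.06, edgeR adjusted p = 0.27, and 0.07 ± 0.05, adjusted p = 0.24), but was called higher on both with the depth scaling (0.19 and 0.17), without the 10 kb extension (0.32 and 0.21) and with an extension of 20 kb (0.10 and 0.11), and on BGI without the peak at a neighbouring start (0.14). Dnmt3b was called on BGI only, with 32.4, 34.2 and 37.8 CPM in MEFs 1, 2 and 4 and 49.2, 47.4 and 49.9 CPM in mESCs 1, 3 and 5 (0.44 ± 0.08), where 4 of its 6 peaks were in the mESC list only and 2 in the MEF list only. On Illumina, where the table held 4 Dnmt3b peaks against 6 on BGI, it had 32.0, 38.6 and 40.3 CPM in MEFs 1, 2 and 4 and 35.2, 36.9 and 40.5 CPM in mESCs 1, 3 and 5 (0.00 ± 0.09, adjusted p = 0.98), and the groups overlapped. Without the 10 kb extension Dnmt3b was at 0.14 on BGI, not called, and at -0.20 on Illumina, called lower (edgeR adjusted p = 0.046), and with 20 kb Uhrf1 was at -0.02 on BGI and was not called. Among all loci with a peak, 38.3% were higher and 38.9% lower on BGI, and 38.8% and 38.6% on Illumina. Of the 8 members, 5 were higher and 2 lower on BGI, and 4 and 2 on Illumina.

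**Figure D2:**
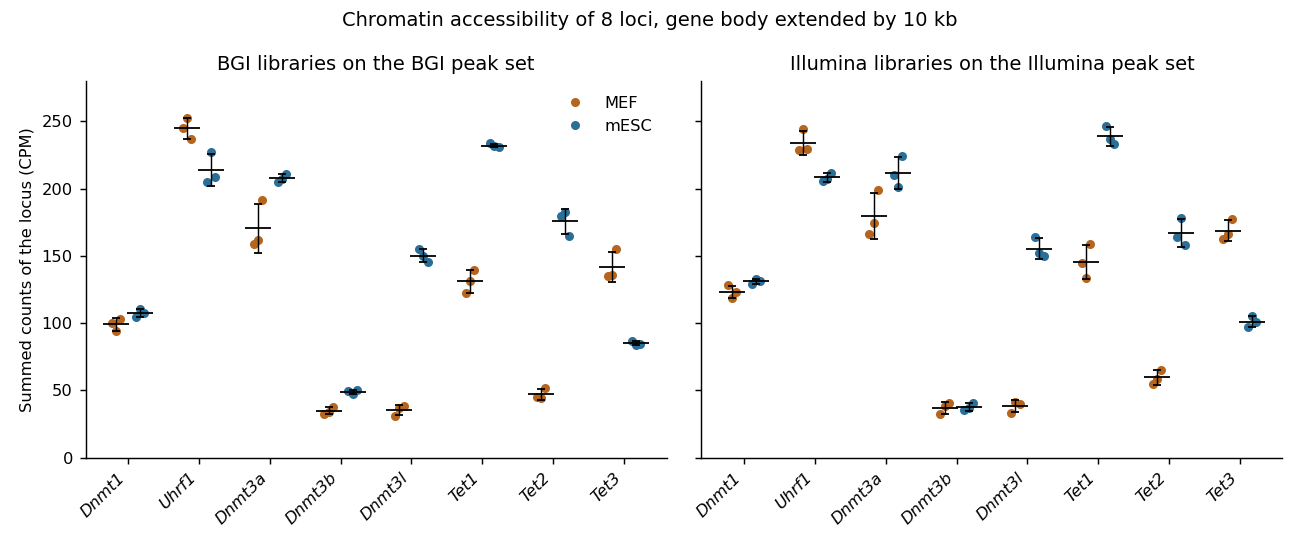
Summed CPM of all peaks assigned to each locus, 3 points per cell type with mean and SD bars, for BGI and Illumina. The MEF and mESC points do not overlap at any locus except Dnmt3b on Illumina, and the gaps are wide at Dnmt3l, Tet1, Tet2 and Tet3, with Tet3 alone of these 4 higher in MEFs.

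At Dnmt1, most of the signal came from the start of the somatic transcripts. The strongest peak, chr9:20952690-20953191, held 33 CpG and gave 28.7, 26.9 and 36.8 CPM in MEFs 1, 2 and 4 and 36.4, 43.0 and 37.6 CPM in mESCs 1, 3 and 5. Its log2 fold change was 0.28 ± 0.12 (SE, edgeR adjusted p = 0.033) on BGI and 0.20 ± 0.10 on Illumina, where it was not called. The BGI call was lost without MEF library 1, MEF library 2 or mESC library 3 (edgeR adjusted p = 0.064, 0.16 and 0.084). It was also lost with the Illumina samples on the same peaks (edgeR adjusted p = 0.0504). The Illumina peak was called higher by DESeq2 (adjusted p = 0.037). By edgeR it was called higher with the depth scaling, with a mean count of at least 50 and without MEF library 4 (adjusted p = 0.0099, 0.032 and 0.048). The adjacent peak at chr9:20952077-20952578 did not differ detectably, at 13.6 ± 0.798 CPM in MEFs and 14.3 ± 1.01 CPM in mESCs (SD, n = 3). Another peak inside the gene, chr9:20951410-20951911, was more open in MEFs, with 17.7, 17.2 and 15.8 CPM in MEFs 1, 2 and 4 and 7.75, 6.56 and 7.27 CPM in mESCs 1, 3 and 5 and a log2 fold change of -1.30 ± 0.15 (SE; by edgeR, adjusted p = 1.9e-07). Upstream of the gene, the peak at chr9:20961476-20961977 was also lower in mESCs, 3.83 ± 1.65 CPM in MEFs and 0.784 ± 0.278 CPM in mESCs, and had no Illumina counterpart. Both intronic peaks called in the gene rose in mESCs, by log2 2.28 ± 0.30 at chr9:20927740-20928241 and 1.69 ± 0.17 at chr9:20943809-20944310. The neighbouring start of Eif3g held 1 peak, which was lower in mESCs.

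Uhrf1, whose protein recruits Dnmt1 to newly replicated DNA, had strong start peaks that differed little. The peak at chr17:56303961-56304462 had 43.2, 46.1 and 42.4 CPM in MEFs 1, 2 and 4 and 38.3, 48.2 and 41.4 CPM in mESCs 1, 3 and 5, and its groups overlapped. Its log2 fold change was -0.11 ± 0.10 on BGI and -0.17 ± 0.09 on Illumina, and neither was called, although the Illumina peak was called lower by DESeq2, with RLE size factors, without MEF library 4 and without mESC library 3 (adjusted p = 0.033, 0.049, 0.028 and 0.011). The other start peak, chr17:56303057-56303558, was lower in mESCs, 42.0 ± 1.39 CPM in MEFs and 32.9 ± 2.35 CPM in mESCs, with a log2 fold change of -0.42 ± 0.10 (SE; by edgeR, adjusted p = 5.9e-04) on BGI and -0.35 ± 0.10 on Illumina, where the call was lost with the depth scaling (-0.23, edgeR adjusted p = 0.055). The largest part of the locus sum came from the neighbouring start of Kdm4b, a histone demethylase gene, at chr17:56325539-56326040, with 144 ± 5.19 CPM in MEFs and 125 ± 5.82 CPM in mESCs, and another Kdm4b peak was lower in mESCs as well.

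Dnmt3a is read from several starts, and its peaks went both ways. At the CpG-rich start of the long form, 2 peaks lying side by side moved in opposite directions. The first, chr12:3806142-3806643, had 11.3, 13.1 and 12.4 CPM in MEFs 1, 2 and 4 and 25.0, 25.6 and 23.8 CPM in mESCs 1, 3 and 5 and rose by log2 0.95 ± 0.12 (SE; by edgeR, adjusted p = 7.5e-07). The next, chr12:3806717-3807218, which held 82 CpG, had 13.5, 12.7 and 14.9 CPM in MEFs 1, 2 and 4 and 8.89, 6.03 and 6.83 CPM in mESCs 1, 3 and 5 and a log2 fold change of -0.99 ± 0.17. On Illumina the pair gave 0.75 ± 0.10 and -0.81 ± 0.12, the same directions. A peak farther into the gene, chr12:3807881-3808382, was not called at 0.04 ± 0.16. In its place the Illumina set held chr12:3807376-3807877, which was lower in mESCs, with 13.6 ± 1.70 CPM in MEFs and 10.9 ± 0.440 CPM in mESCs (log2 fold change -0.37 ± 0.14). This call was lost with the depth scaling (-0.25, edgeR adjusted p = 0.12) and with the BGI samples on the same peaks (-0.25, edgeR adjusted p = 0.28).

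The 3 peaks at internal Dnmt3a starts were higher in mESCs; other internal starts had no peak within 1 kb. The peak at chr12:3891620-3892121, at the start of the transcripts Dnmt3a-203 and Dnmt3a-205, had 8.45, 8.40 and 9.36 CPM in MEFs 1, 2 and 4 and 15.8, 16.0 and 15.1 CPM in mESCs 1, 3 and 5, a log2 fold change of 0.77 ± 0.14 (SE; by edgeR, adjusted p = 5.8e-05) on BGI and 0.70 ± 0.15 on Illumina. The peak near the start of Dnmt3a-213, chr12:3884956-3885457, had 0.969, 0.845 and 1.29 CPM in MEFs 1, 2 and 4 and 12.5, 11.7 and 11.2 CPM in mESCs 1, 3 and 5 and rose by log2 3.44 ± 0.23. The start peak at chr12:3905414-3905915 rose by 2.92 ± 0.32 and had no Illumina counterpart. Each of the last 2 was near closed in MEFs.

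Away from its starts, Dnmt3a carried the steepest MEF excess of all 95 peaks. The intronic peak at chr12:3824772-3825273 had 18.5, 13.5 and 15.9 CPM in MEFs 1, 2 and 4 and 1.13, 0.591 and 1.43 CPM in mESCs 1, 3 and 5, a log2 fold change of -3.99 ± 0.25 on BGI and -4.03 ± 0.28 on Illumina. Intronic peaks at chr12:3843228-3843729 and chr12:3856008-3856509 were lower, at log2 -2.59 ± 0.20 and -2.47 ± 0.19. In the other direction, the intronic peak at chr12:3889721-3890222, just before the short-form start, had 1.38, 1.29 and 1.99 CPM in MEFs 1, 2 and 4 and 17.3, 16.6 and 17.5 CPM in mESCs 1, 3 and 5, and the peak at chr12:3795512-3796013 upstream of the gene rose by 3.83 ± 0.24, the largest at this locus. This last peak lay 9994 bp from the nearest start, at the very edge of the 10 kb window. Elements more open in one cell type and elements more open in the other were thus mixed along the 5′ part of the gene. On Illumina, every called peak from chr12:3870968-3871469 onward was higher in mESCs. The locus sum changed little.

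Dnmt3b, the other de novo enzyme, was open at its CpG island in both cell types. The peak over the start, chr2:153649381-153649882 with 78 CpG, had 18.5, 17.3 and 22.1 CPM in MEFs 1, 2 and 4 and 15.1, 15.0 and 13.1 CPM in mESCs 1, 3 and 5, a log2 fold change of -0.49 ± 0.13 on BGI and -0.52 ± 0.10 on Illumina, so it was lower in mESCs. Just downstream, chr2:153649999-153650500 was higher in mESCs, with 6.58 ± 0.334 CPM in MEFs and 10.4 ± 0.711 CPM in mESCs, 0.60 ± 0.16 on the log2 scale, with no Illumina counterpart. An internal start peak at chr2:153668690-153669191 was not called on BGI (-0.43 ± 0.24) and was lower on Illumina (-0.56 ± 0.22), where the call was lost with the depth scaling, with the BGI samples on the same peaks, without MEF library 2 and without mESC library 5 (edgeR adjusted p = 0.074, 0.067, 0.051 and 0.065). The 3 peaks away from starts were all higher in mESCs, against 45.5% of all BGI peaks away from starts. They were chr2:153643002-153643503 upstream (3.10 ± 0.30, without an Illumina counterpart) and chr2:153660622-153661123 in an intron (2.81 ± 0.38). The third was chr2:153694411-153694912 downstream, nearest to the start of Dnmt3c (1.73 ± 0.25). On BGI, 4 of the 6 Dnmt3b peaks were in the mESC list only, 2 in the MEF list only and 0 in both. Their direction was thus largely fixed by that choice.

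Dnmt3l was nearly closed in MEFs at the start of Dnmt3l-201 and open there in mESCs, and an internal start farther into the gene had signal in both cell types. The peak over the first of these, the CpG-poor start shown above, chr10:78049605-78050106, had 0.369, 0.895 and 1.10 CPM in MEFs 1, 2 and 4 and 14.8, 20.8 and 18.7 CPM in mESCs 1, 3 and 5, a log2 fold change of 4.46 ± 0.27 on BGI and 4.99 ± 0.26 on Illumina, and was in the mESC list only with no summit called in any MEF sample. The peak before it, chr10:78049006-78049507, rose by 4.17 ± 0.26, and the internal start at chr10:78055128-78055629, which had 4.44 ± 0.991 CPM in MEFs and 16.3 ± 1.28 CPM in mESCs, rose by 1.81 ± 0.18. The largest difference at the locus was just upstream at chr10:78047990-78048491, with 0.231, 0.447 and 0.299 CPM in MEFs 1, 2 and 4 and 14.2, 12.4 and 10.7 CPM in mESCs 1, 3 and 5, 5.17 ± 0.29 on BGI and 5.68 ± 0.29 on Illumina. Peaks downstream of the gene at chr10:78064852-78065353 and chr10:78067181-78067682 rose by 3.48 ± 0.30 and 3.03 ± 0.18. Of 3 peaks at neighbouring starts, 2 at Aire rose by 4.03 ± 0.28 and 2.01 ± 0.14, and 1 at Icosl rose by 0.41 ± 0.11. The second Aire peak also lay about as close to a Dnmt3l start as the 1 kb limit, and its Illumina counterpart counted as a Dnmt3l start.

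At Tet1 the upstream starts of Tet1-206 and Tet1-209 were open in mESCs and nearly closed in MEFs, the most upstream start, of Tet1-208, had no peak within 1 kb, and the start of Tet1-207 and Tet1-210, called the downstream start here, was open in both cell types. Of the annotated starts farther into the gene, only that of a processed transcript had a peak within 1 kb. The upstream start of Tet1-206, whose window held 5 CpG, was covered by the peak at chr10:62898990-62899491, which had 0.0923, 0.298 and 0.249 CPM in MEFs 1, 2 and 4 and 5.86, 6.80 and 5.78 CPM in mESCs 1, 3 and 5 and a log2 fold change of 4.76 ± 0.39, and the peak beside it at chr10:62897893-62898394 rose by 4.305 ± 0.33. At the start of Tet1-209, which it shares with Gm26479, chr10:62892536-62893037 had 0.831, 0.845 and 1.49 CPM in MEFs 1, 2 and 4 and 23.9, 26.6 and 25.7 CPM in mESCs 1, 3 and 5, a log2 fold change of 4.52 ± 0.20 on BGI and 4.18 ± 0.17 on Illumina, and it was the strongest Tet1 start peak of mESCs. These 3 peaks were in the mESC list only, with no summit called in any MEF sample, so their direction describes that selection. At the downstream start, the peak at chr10:62886709-62887210, with 38 CpG, had 21.5, 23.3 and 24.0 CPM in MEFs 1, 2 and 4 and 11.5, 10.6 and 11.7 CPM in mESCs 1, 3 and 5, a log2 fold change of -1.09 ± 0.12 (SE; by edgeR, adjusted p = 1.5e-07) on BGI and -1.29 ± 0.11 on Illumina. On Illumina a further peak over this start, chr10:62887214-62887715, was also lower in mESCs, with 17.2 ± 1.62 CPM in MEFs and 11.8 ± 1.37 CPM in mESCs (log2 fold change -0.59 ± 0.14). The neighbouring peak at chr10:62886039-62886540 was not called, at 14.1 ± 2.47 CPM in MEFs and 14.2 ± 2.70 CPM in mESCs. At an internal processed transcript, chr10:62865157-62865658 had 37.3 ± 3.81 CPM in MEFs and 20.1 ± 0.691 CPM in mESCs and was lower, with a log2 fold change of -0.96 ± 0.10, while chr10:62866283-62866784 rose by 1.03 ± 0.21.

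Between the upstream and downstream starts, the Tet1 introns were open in mESCs. The largest difference of all 95 peaks was at chr10:62895428-62895929, with 0.369, 0.398 and 0.149 CPM in MEFs 1, 2 and 4 and 12.7, 13.7 and 9.63 CPM in mESCs 1, 3 and 5, 5.20 ± 0.32 on BGI and 4.90 ± 0.29 on Illumina. Of all 22 Tet1 peaks on BGI, 17 were in the mESC list only, so the direction of these describes that selection. Of the 15 Tet1 peaks away from starts, 14 were higher in mESCs, against 45.5% of all BGI peaks away from starts. The exception, chr10:62850973-62851474, had 25.2, 23.0 and 23.6 CPM in MEFs 1, 2 and 4 and 5.42, 3.90 and 4.91 CPM in mESCs 1, 3 and 5 and was lower, at log2 -2.40 ± 0.15 on BGI and -2.49 ± 0.15 on Illumina.

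Tet2 kept its start open in both cell types and had many further peaks in mESCs. The start peak at chr3:133544128-133544629, over the window with 57 CpG, had 24.6, 23.1 and 25.5 CPM in MEFs 1, 2 and 4 and 29.7, 36.0 and 28.1 CPM in mESCs 1, 3 and 5. Its log2 fold change was 0.29 ± 0.11 (SE, edgeR adjusted p = 0.023) on BGI and 0.20 ± 0.11 on Illumina, where it was not called. The BGI call was lost without MEF library 2, without mESC library 3 and with the Illumina samples on the same peaks (edgeR adjusted p = 0.078, 0.077 and 0.061). The Illumina peak was called higher with the depth scaling, with the BGI samples on the same peaks and without mESC library 1 (edgeR adjusted p = 0.015, 0.045 and 0.040). The second start peak, chr3:133544754-133545255, had 15.7 ± 2.70 CPM in MEFs and 15.5 ± 2.25 CPM in mESCs and was not called on either platform. All 12 other peaks were higher in mESCs, by log2 values of 2.23 to 5.12. They were in the mESC list only, with no summit called in any MEF sample, so their direction is a description of that selection. The strongest, chr3:133534021-133534522 in an intron, had 0.785, 0.746 and 0.647 CPM in MEFs 1, 2 and 4 and 27.9, 27.1 and 25.0 CPM in mESCs 1, 3 and 5, 5.12 ± 0.19 on BGI and 5.96 ± 0.20 on Illumina. Nearby, chr3:133533223-133533724 and chr3:133524553-133525054 rose by 5.03 ± 0.26 and 4.63 ± 0.23.

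Tet3 was the one dioxygenase gene more open in MEFs, at its start peaks and at most of its intronic peaks. On BGI, 6 of its 10 peaks were in the MEF list only, 2 in the mESC list only and 2 in both. The direction of the single-list peaks was thus largely fixed by that choice. The strongest start peak, chr6:83441424-83441925, had 43.5, 44.6 and 57.8 CPM in MEFs 1, 2 and 4 and 30.2, 31.8 and 27.6 CPM in mESCs 1, 3 and 5, a log2 fold change of -0.77 ± 0.11 (SE; by edgeR, adjusted p = 4.5e-06) on BGI and -0.75 ± 0.10 on Illumina. The upstream start peak at chr6:83456584-83457085, with 58 CpG, had 19.3, 18.2 and 20.1 CPM in MEFs 1, 2 and 4 and 9.20, 8.04 and 7.27 CPM in mESCs 1, 3 and 5 and a log2 fold change of -1.30 ± 0.14. The start peaks at chr6:83440703-83441204 and chr6:83442503-83443004 were lower as well, at log2 -1.28 ± 0.20 and -1.53 ± 0.28. A start peak in the Illumina set only, chr6:83455727-83456228, was also lower, with 11.8 ± 0.480 CPM in MEFs and 6.33 ± 1.26 CPM in mESCs (log2 fold change -0.94 ± 0.17). Among intronic peaks, chr6:83427893-83428394 and chr6:83443465-83443966 were the lowest, at -3.09 ± 0.25 and -2.98 ± 0.23; the latter had 11.5, 12.7 and 14.8 CPM in MEFs 1, 2 and 4 and 1.13, 2.01 and 1.99 CPM in mESCs 1, 3 and 5. The 2 exceptions were chr6:83421868-83422369, at the start of 5430434F05Rik, which rose by 3.64 ± 0.24, and the intronic chr6:83453601-83454102, which rose by 0.79 ± 0.19.

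**Figure D3:**
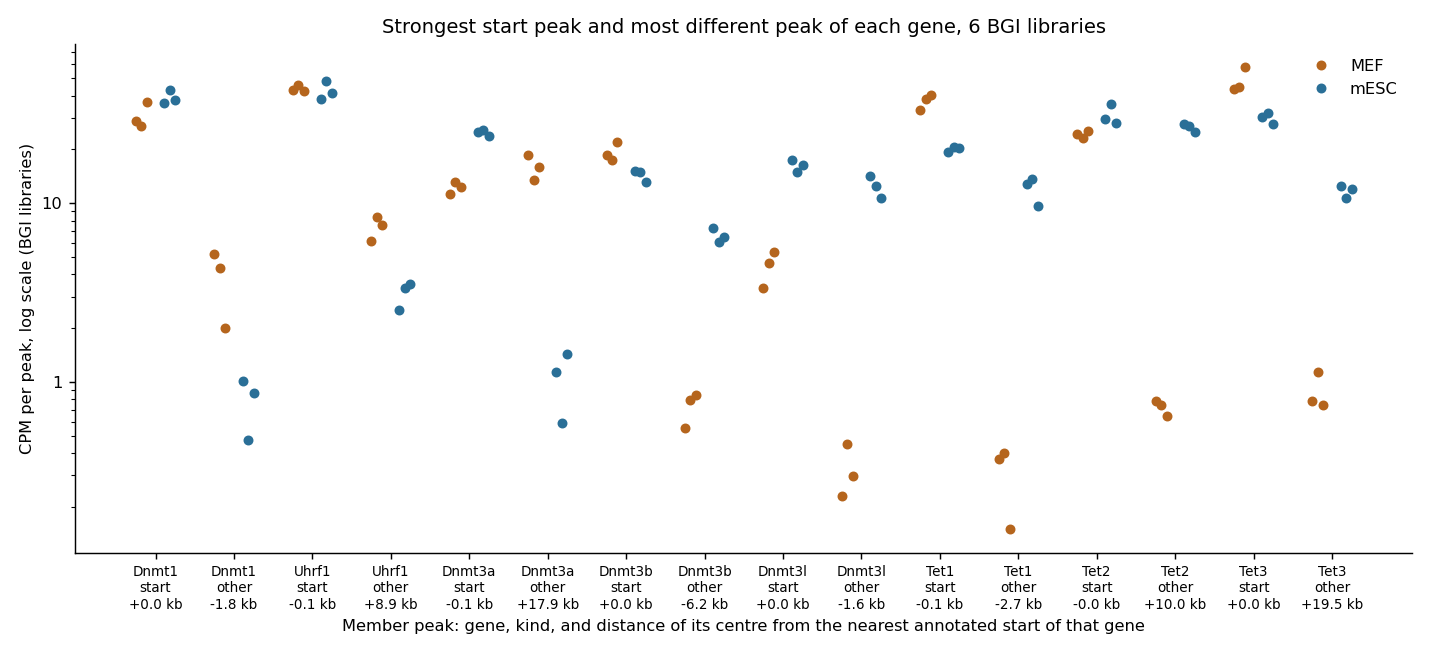
CPM on a log scale in the 6 BGI libraries for the strongest own-start peak of each gene (start) and for its called peak with the largest difference (other), with the distance to the nearest own start in kb. The start peaks of Dnmt1, Uhrf1 and Tet2 have similar levels in both cell types, whereas the other peaks of Dnmt3b, Dnmt3l, Tet1, Tet2 and Tet3 average under 1 CPM in MEFs.

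Peaks rich in CpG differed less between the cell types than peaks poor in it. Of 58 member peaks with 0 to 9 CpG on BGI, 40 were higher and 9 lower at least 2-fold, with a median log2 fold change of 2.47. Of 15 with 30 or more, 1 was higher and 2 were lower, with a median of -0.11. The middle classes had 8 higher and 4 lower of 17 (10 to 19 CpG) and 0 of 5 (20 to 29 CpG). In the whole table the same classes had 39.6% higher and 40.9% lower (0 to 9), 37.3% and 27.7% (10 to 19), 24.2% and 9.31% (20 to 29), and 7.34% and 5.2% (30 or more), so small differences at CpG-rich sites were common to the table. The 3 CpG-rich member peaks past 2-fold were those named above at the downstream Tet1 start (38 CpG, lower), the upstream Tet3 start (58 CpG, lower) and the Aire start beside Dnmt3l (30 CpG, higher). Across member peaks, CpG count and the size of the log2 fold change had a Spearman rho of -0.56 (n = 95), and -0.52 over all peaks. The points share the same 6 libraries, and CpG-rich peaks also had more MEF signal (rho 0.53).

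**Figure D4:**
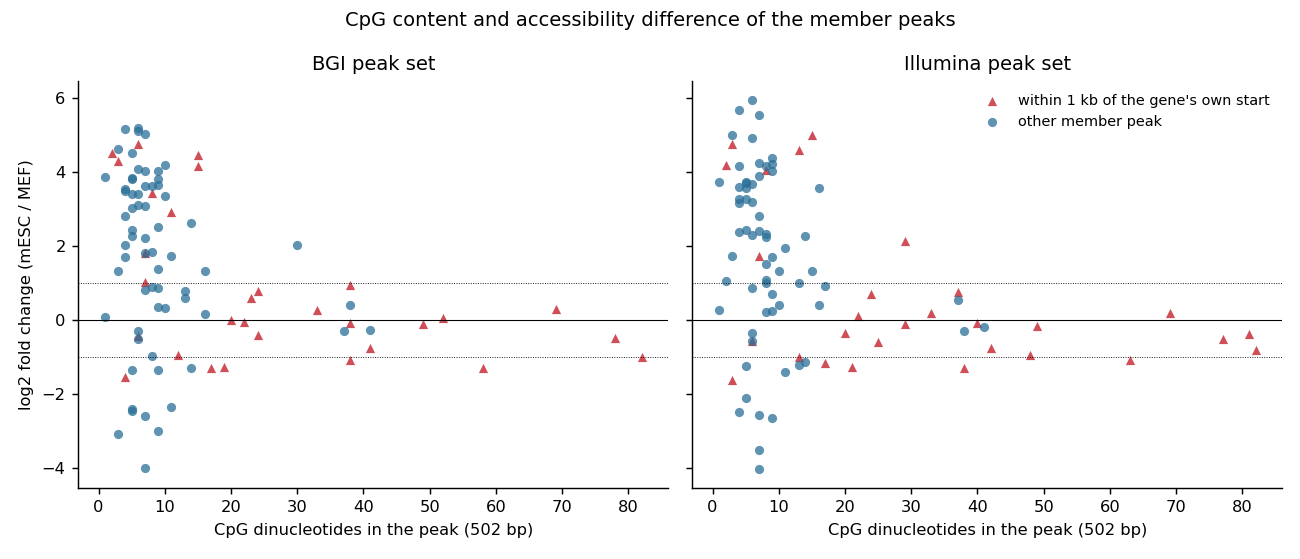
CpG count per 502 bp peak against log2 fold change (mESC over MEF) for the member peaks, own-start peaks as red triangles and other peaks as blue points, with dotted lines at a log2 fold change of 1 and -1. Of the 15 peaks with 30 or more CpG on BGI, 3 lie outside the lines, and the peaks past 4 hold 15 CpG or fewer.

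The following 200-base centres of strongly different peaks away from starts are shown because they carry short words known from other work as binding sites; capitals mark these words, and the letters are the plus strand of GRCm38.
Tet1, higher in mESCs (chr10:62902898-62903097): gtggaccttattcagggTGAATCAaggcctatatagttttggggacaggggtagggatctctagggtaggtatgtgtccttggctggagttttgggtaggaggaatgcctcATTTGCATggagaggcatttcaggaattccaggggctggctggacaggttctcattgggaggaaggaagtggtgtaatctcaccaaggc
Tet1, lower in mESCs (chr10:62851124-62851323): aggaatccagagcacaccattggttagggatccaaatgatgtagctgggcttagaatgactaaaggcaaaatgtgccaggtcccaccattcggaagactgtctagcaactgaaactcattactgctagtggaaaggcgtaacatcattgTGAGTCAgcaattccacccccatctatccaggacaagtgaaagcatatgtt
Dnmt3a, lower in mESCs (chr12:3824923-3825122): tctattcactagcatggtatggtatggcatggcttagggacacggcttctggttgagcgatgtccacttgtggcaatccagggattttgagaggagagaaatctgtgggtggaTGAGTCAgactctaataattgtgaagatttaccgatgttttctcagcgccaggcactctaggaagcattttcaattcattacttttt
Tet3, lower in mESCs (chr6:83443616-83443815): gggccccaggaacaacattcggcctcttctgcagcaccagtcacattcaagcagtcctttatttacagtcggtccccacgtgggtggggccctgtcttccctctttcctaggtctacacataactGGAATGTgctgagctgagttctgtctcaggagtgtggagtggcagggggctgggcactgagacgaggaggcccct
Of these, the centres of Tet1 (lower in mESCs) and Dnmt3a held the AP-1 word, that of Tet3 held the TEAD word, and that of the Tet1 peak higher in mESCs, chr10:62902747-62903248, held the octamer and AP-1 words. This last peak had 1.02, 1.34 and 0.597 CPM in MEFs 1, 2 and 4 and 18.2, 15.0 and 12.6 CPM in mESCs 1, 3 and 5 and rose by 3.88 ± 0.26. Centres read in the same way but not printed came from peaks higher in mESCs at Dnmt1, Dnmt3a, Dnmt3b, Dnmt3l and Tet2, and held none of the words. The centre of a Dnmt1 peak lower in mESCs, also not printed, held the AP-1 word.

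Over all member peaks, 7 such words were searched on both strands; a match is only a match of letters. The AP-1 word TGANTCA was in 5 of the 15 BGI peaks lower at least 2-fold in mESCs (33.3%), 8 of the 49 higher (16.3%) and 3 of the other 31, against 25.2% of all peaks, 44.5% of all lower and 19.3% of all higher ones. The 5 were 1 each at Dnmt1, Dnmt3a and Tet1 and 2 at Tet3. The octamer word ATGCAAAT was in 4 of the 49 higher peaks, 3 at Tet1 and 1 at Tet2, in 0 of the others, and in 3.21% of all peaks and 5.31% of all higher ones. The Esrrb word TCAAGGTCA was in 2 of the 49, at chr12:3889721-3890222 and chr10:62896800-62897301, in 0 of the others, and in 1.42% of all peaks and 2.85% of all higher ones. The Sox word AACAATG was in 5 higher, 2 lower and 2 other member peaks (6.65% of all), and the TEAD word GGAATGT in 2, 1 and 4 (11.3% of all). The SP/KLF word CCCCGCCC was in 2, 1 and 7 (13% of all), and the NRF1 word GCATGCGC in 1 other peak (1.89% of all). With so few matches, these shares describe the member peaks and separate no class from the table.

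The authors' lists of reproducible peaks come from the same reads and decided which peaks entered the tables, so their split describes that selection. On BGI, 56.8% of the member peaks were in the mESC list only (against 36.4% of all peaks), 18.9% in the MEF list only (against 32.8%), and 23 peaks or 24.2% in both (against 30.8%). On Illumina the split was 56, 18 and 19 of 93. In the looser calls of single samples, 36 of the 95 peaks had no summit in any MEF sample and 3 had none in any mESC sample.

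Between the instruments, more member peaks were lower on BGI than higher in both cell types before a correction for GC content, and their number depended on whether the libraries were paired in the fit. In the MEF peak set of both platforms, which held 45 member peaks, 5 were lower on BGI than on Illumina and 0 higher, against 3.96% and 0.107% of all peaks by edgeR. In the mESC set, 5 of 86 were lower and 0 higher, against 3.19% and 0.0418%. With the library as a block, 12 were lower and 2 higher in MEFs (backgrounds 15.3% and 13.9%), and 15 and 1 in mESCs (backgrounds 15.6% and 5.78%). The peaks called without the block lay at the starts of Dnmt3a, Dnmt3b and Tet3 in both cell types, of Tet2 in MEFs and of Dnmt1 in mESCs. No member peak was called without MEF library 1, without MEF library 2, or, in the mESC set, without library 1 or library 5, and 10 were called without MEF library 4. These counts moved with the whole table, in which edgeR called 0 of 61891 peaks without MEF library 1 or 2, 1 and 0 of 67063 without mESC library 1 or 5, and 370 higher and 5762 lower without MEF library 4. The widest gap was at Dnmt3a in mESCs, chr12:3807376-3807877, where BGI gave 6.44, 4.99 and 5.02 CPM and Illumina 10.9, 10.3 and 11.1 CPM for libraries 1, 3 and 5, a log2 ratio of -1.03 ± 0.15 (SE; by edgeR, adjusted p = 0.0054). GC content moved with the ratio: of member peaks with at least 65% GC, 9 of 11 in MEFs and 9 of 10 in mESCs were lower on BGI with the block, against 3 of 34 and 6 of 76 of the rest. The Spearman rho of GC with the ratio was -0.69 over the 45 and -0.41 over the 86 member peaks, and -0.58 and -0.55 over all peaks. Its part in the platform difference was not tested beyond a GC offset, which with the block left 3 higher and 3 lower in MEFs (backgrounds 6.23% and 6.61%) and 2 and 11 in mESCs (backgrounds 4.27% and 4.57%).

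Whether the difference between cell types itself depended on the instrument was tested as an interaction on the BGI peak set. By edgeR, 0 of the 95 member peaks were called, as were 0% of all peaks, and 3 member peaks had an unadjusted p under 0.05, against 2386 of 91354 peaks (2.61%). The BGI log2 fold change minus the Illumina one ranged from -0.72 to 0.82 over the member peaks. With the library as a block, edgeR called 0 member peaks, against 353 of all peaks (0.386%), and 9 member peaks had an unadjusted p under 0.05, against 12094 of all peaks (13.2%).

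Other genes of DNA methylation showed no common direction at their promoters. Each gene was represented by its strongest peak within 1 kb of a start, and 48 listed genes had such a peak. On BGI, 11 were higher in mESCs, 21 lower and 16 not called, against 22.4% higher and 43.8% lower of the 15143 protein-coding genes with such a peak. The median log2 fold change was -0.20, and -0.17 over all genes. On Illumina, 11 were higher, 19 lower and 18 not called (backgrounds 22.8% and 45.6%). Of 9 readers of methylated DNA, 0 were higher and 4 lower; of 12 genes of removal and repair, 4 were higher and 6 lower; of 18 cofactors and regulators, 5 and 8; and of 9 genes of methyl donor and cosubstrate supply, 2 and 3.

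The largest mESC excess in this list was at Prdm14, a repressor of de novo methylation genes in pluripotent cells, with a log2 fold change of 2.01 ± 0.20 on BGI and 1.80 ± 0.19 on Illumina. Gnmt, which uses up the methyl donor, rose by 1.56 ± 0.18 on BGI and 1.58 ± 0.16 on Illumina. Dppa3, which shields methylated DNA from Tet3 in the egg and restrains Uhrf1, rose by 1.39 ± 0.27 on BGI and 1.53 ± 0.25 on Illumina. The lowest promoters were those of Mbd1, a reader of methylated CpG, at -1.15 ± 0.10 on BGI and -1.17 ± 0.09 on Illumina, of Tdg, the glycosylase that removes oxidised methylcytosine, at -0.89 ± 0.10 on BGI and -0.98 ± 0.09 on Illumina, and of Cxxc4, which binds unmethylated CpG and Tet2, at -0.89 ± 0.15 on BGI and -1.16 ± 0.15 on Illumina. No gene was called in opposite directions on the platforms.

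**Figure D5:**
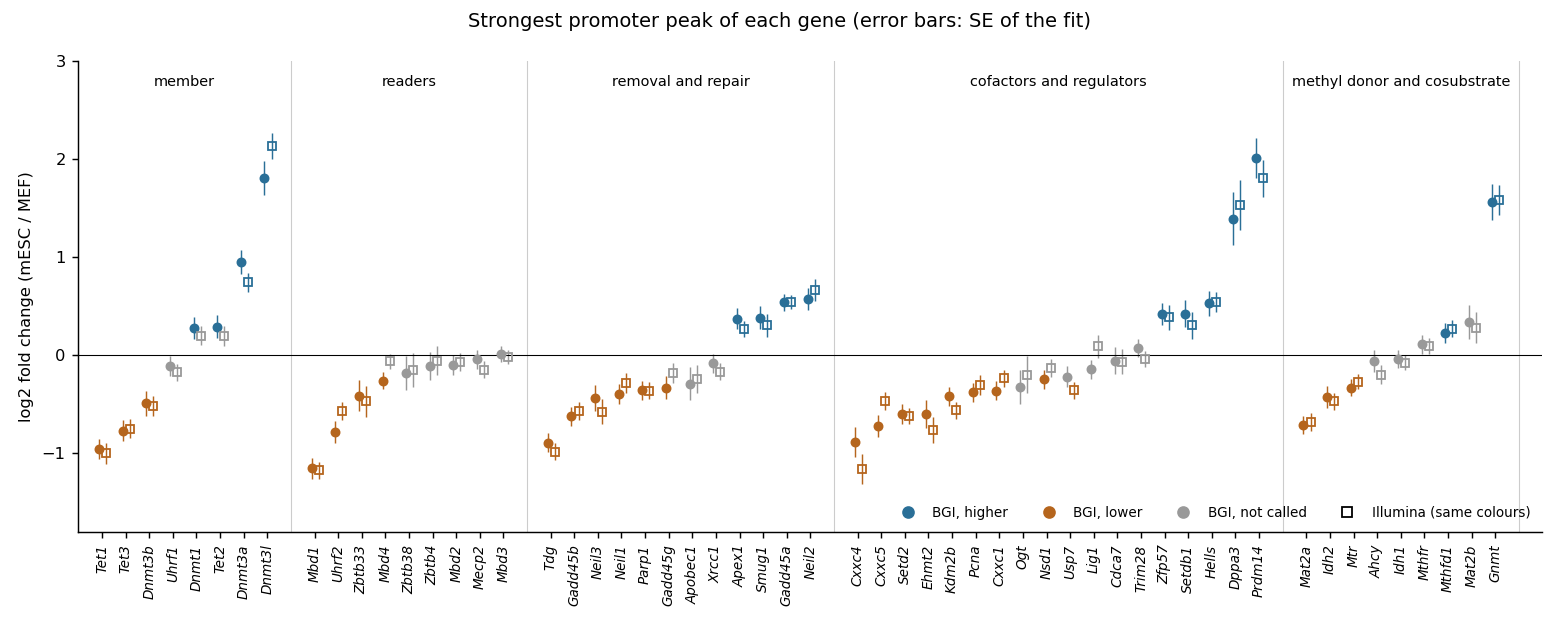
Log2 fold change (mESC over MEF) with SE of the strongest promoter peak of each listed gene by role, BGI as circles and Illumina as squares. The values of Prdm14, Gnmt and Dppa3 lie above 1 on both platforms, and that of Mbd1 lies below -1 on both.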

How the data were processed

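The authors used Bowtie2 and the GRCm38 (mm10) genome, discarded duplicate and mitochondrial reads, and down-sampled to 60 M (MEF) or 45 M (mESC) reads. They called peaks per sample with MACS2 and merged summits into consensus sets without chromosome Y. The deposited tables hold raw read counts per peak for all 12 samples, in BGI, Illumina and both-platform peak sets. The deposited calls of single samples also hold a fold enrichment as a ratio, a −log10 p-value and a score; their summits were only matched to member peaks. Columns without a platform name were taken as Illumina.

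CPM is the count divided by a sample's reads in the peak set. Differences were tested with edgeR 4.0.16 in R 4.3.3 (quasi-likelihood test, TMM, filterByExpr, which removed no peak, so all member peaks were tested), with Benjamini-Hochberg adjustment over all peaks or loci and a threshold of 0.05; values are log2(mESC/MEF) ± SE. MEF and mESC samples were compared within a platform. The platforms were compared within a cell type, and the interaction was fitted on all 12 samples. Deviations from the group means of the same library on both platforms correlated with r of 0.617 to 0.837 (MEF) and 0.515 to 0.725 (mESC), and those of different libraries with -0.675 to 0.289 and -0.511 to -0.115, so the library number pairs the samples, as the study states. The text names every own-start peak of the BGI set and those of the Illumina set without a BGI match, up to 3 called peaks per direction and locus, and of the listed genes the 3 most positive and 3 most negative called on both platforms. The members, lists and rules were chosen with earlier results of these data known. Alternatives were DESeq2 1.42.0, other scalings, filters and windows, and leaving out each library. Only the edgeR comparison of MEFs with mESCs was tried on simulated counts, with a far smaller share of changed peaks than was called here. The block, GC offset, interaction and DESeq2 fits were not tried on simulated counts. Tables and figures were made with Python 3.11.15. Precision is limited by 3 libraries per group and by counts of 15.9 to 21.7 M reads per sample.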

Additional observations from a re-analysis of the deposited data

How the results depend on the processing

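The counts of member peaks and loci that differed between mESCs and MEFs stayed within 1.5 times of the reported ones under every alternative tried, with 81 to 84 peaks called on BGI and 79 to 84 on Illumina when 1 library was left out, 64 to 68 and 60 to 64 with a fold of at least 2, and 7 and 6 loci each time. Of the locus fold changes, 227 alternatives kept the call, and those of Dnmt3b and Uhrf1 reversed in 1 alternative each. On Illumina, Dnmt3b without the extension of the gene body was lower in mESCs (-0.20, edgeR adjusted p = 0.046), and Uhrf1 extended by 20 kb was at 0.0078 (adjusted p = 0.87). On BGI, Dnmt3b without the extension lost its call (0.14), as did Uhrf1 extended by 20 kb (-0.02), while Dnmt1 was called without the extension (0.32, and 0.21 on Illumina), with 20 kb (0.10 and 0.11) and without peaks at neighbouring starts (0.14). These windows hold different peaks by construction. Calls on own-start peaks held in 682 alternatives, with 14 lost and 12 gained, at starts of Dnmt1, Tet2, Uhrf1, Dnmt3b and Dnmt3a. Counts of listed genes called at promoters within 0.5 and 2 kb were 31 and 33 on BGI and 29 and 30 on Illumina.

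Between the platforms, counts changed with the pairing. The 5 member peaks called in MEFs became 14 with the replicate block and 9 by DESeq2 (518 higher and 5396 lower of all 61891 peaks), and ranged from 0 (without library 1 or library 2) to 10 (without library 4) when a library was left out, where 0 peaks, and 370 higher and 5762 lower, were called in the whole table. The 5 in mESCs became 16 with the replicate block, 13 with the replicate block and a GC offset, and ranged from 0 (without library 1 or library 5) to 4. The interaction with the replicate block called 0 member peaks by edgeR (9 at an unadjusted p under 0.05), as without it (3), while over all peaks the calls rose from 0 to 353. No paired analysis was possible for mESCs against MEFs because the groups share only the number 1. Depth limits peaks near 1 CPM, where a MEF sample holds about 20 reads.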

Other observations

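Over the 12 samples of the BGI peak set, each member locus was set beside the protein-coding loci that share no peak with it, by the summed log2(CPM + 1). Likeness is the root mean square difference, in log2 units, after each locus was centred on its own mean, and the nearest pair is given. The loci nearest to Dnmt1 were Mterf3 (0.032) and Phykpl (0.033). Those nearest to Dnmt3a were Yeats4 (0.043) and Gtf2ird2 (0.044). Dnmt3b was followed most closely by Bpifc (0.047) and Spag6 (0.049). For Dnmt3l, the nearest were Gm10037 (0.077) and Scgb1b30 (0.089). The loci nearest to Uhrf1 were Cgref1 (0.030) and Tbccd1 (0.035). Those nearest to Tet1 were Mindy1 (0.043) and Ticam2 (0.046). Tet2 was followed most closely by Ina (0.084) and Foxd3 (0.085). For Tet3, the nearest were Nenf (0.030) and Ptk7 (0.041). The 12 samples hold 2 cell types and 6 libraries, each read on both platforms.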
